A study of Homo sapiens with 4 samples.

Results

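The genes for myeloid growth factors, their receptor CSF1R, the chemokines CCL2 and CCL20 and the lysosomal protein LAPTM5 were followed in MDA-MB-231Br, a brain metastatic derivative of the breast cancer line MDA-MB-231, and in MDA-MB-231 itself. They form a list of 8 symbols (CSF1, CSF1R, CSF2, CSF3, IL34, CCL2, CCL20 and LAPTM5), chosen with earlier results of these data known. Of these, 7 had a row among the 15279 named rows of the deposited RNA-seq table. IL34, the second ligand of CSF1R, had no row under this or an older symbol and was not analysed here. Each line was represented by 2 libraries of total RNA from cells grown in DMEM with 10% serum. They are called A and B here by column order. No treatment and no engineered allele is named for either line, and the labels do not state whether a line's 2 libraries stem from different cultures. The p-values therefore measure the spread of these libraries alone, and that spread could be technical.

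CSF1 keeps monocytes, macrophages and microglia alive and dividing by binding the tyrosine kinase CSF1R, which macrophages carry and most epithelial cells do not. CSF2 and CSF3, also known as GM-CSF and G-CSF, drive the output of granulocytes and macrophages through receptors of their own, and tumour cells that secrete them can mobilise myeloid cells. CCL2 draws monocytes through CCR2, CCL20 draws dendritic cells and lymphocytes through CCR6, and LAPTM5 is a lysosomal membrane protein best known from blood cells, where it sends antigen receptors to degradation.

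Upstream sequence was available in the RefSeq table (build GRCh38.p14) for 4 of the 8 genes, and the windows of CSF1R, LAPTM5 and CCL20 are shown because these genes are the receptor and the members with a large difference for which the table holds one. Each is the 250 bases before a transcript start, 5′ to 3′ on the gene's strand, with motif matches on either strand in capitals. CSF1R is on the minus strand and has 2 listed starts, of which the first lies farther upstream (chr5:150113366-150113615) and the second downstream of it (chr5:150086555-150086804). LAPTM5 is on the minus strand (chr1:30757775-30758024) and CCL20 on the plus strand (chr2:227813592-227813841).
CSF1R upstream start: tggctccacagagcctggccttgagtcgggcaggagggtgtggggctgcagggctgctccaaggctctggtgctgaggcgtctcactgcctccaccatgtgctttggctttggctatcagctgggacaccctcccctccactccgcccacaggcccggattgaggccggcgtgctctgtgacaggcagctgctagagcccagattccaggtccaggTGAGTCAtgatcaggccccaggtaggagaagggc
CSF1R downstream start: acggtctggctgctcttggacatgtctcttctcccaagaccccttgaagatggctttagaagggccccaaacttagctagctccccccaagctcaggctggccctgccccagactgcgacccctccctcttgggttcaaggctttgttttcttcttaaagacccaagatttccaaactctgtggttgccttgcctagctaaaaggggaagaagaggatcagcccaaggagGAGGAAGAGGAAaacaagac
LAPTM5: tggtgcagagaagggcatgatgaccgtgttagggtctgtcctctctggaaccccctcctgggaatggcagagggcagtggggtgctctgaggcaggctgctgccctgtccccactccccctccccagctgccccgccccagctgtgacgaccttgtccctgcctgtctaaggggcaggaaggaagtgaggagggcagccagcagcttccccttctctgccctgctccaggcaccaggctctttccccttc
CCL20: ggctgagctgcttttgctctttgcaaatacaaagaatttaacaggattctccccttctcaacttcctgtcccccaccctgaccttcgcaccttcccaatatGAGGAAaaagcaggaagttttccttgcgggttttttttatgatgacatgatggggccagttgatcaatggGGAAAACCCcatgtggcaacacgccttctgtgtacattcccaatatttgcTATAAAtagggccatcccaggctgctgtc
The motifs searched were an NF-kappaB motif (GGNNTTTCC), an AP-1 motif (TGAGTCA), the PU box (GAGGAA), the TATA box (TATAAA) and the CK-1 element of cytokine genes (GAGATTCC). The PU box is the form bound by PU.1, and the shorter GGAA core of other ETS factors was not searched. No 2 matches overlapped in these windows. The upstream CSF1R window held 1 AP-1 match, found in 4.2% of all 35116 windows of the same length, and the downstream one held 2 adjoining GAGGAA matches, a motif found in 23.6% of windows. CCL20 held 1 NF-kappaB match 71 to 79 bases before the start (5.48% of windows), 1 GAGGAA match and 1 TATA box match (10.7% of windows). LAPTM5 held none of the motifs searched, and the CSF2 window, not printed, held 1 CK-1 match (0.735% of windows) and 1 GAGGAA match. A match describes the sequence only.

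Reads assigned to named genes numbered 25835225 to 30771290 per library. The MDA-MB-231Br libraries differed more from each other than the MDA-MB-231 libraries did, which does not show which of them is apart. The median absolute log2 difference over the 14424 genes tested was 0.377 between the MDA-MB-231Br libraries and 0.26 between the MDA-MB-231 libraries, and 15 pseudogenes of mitochondrial origin, whose reads can reflect RNA quality, took 0.17% of reads in MDA-MB-231Br library B against 0.0425% to 0.0483% in the other libraries. All 7 measured members had a higher value in MDA-MB-231Br library B than in library A, with a median log2 difference of 1.14, whereas 50% of all genes tested were higher in library B, with a median of 0.00. The part of RNA quality in those values was not tested. The results on the 7 genes below are also given without MDA-MB-231Br library B. Of 10 markers of the breast cancer line 7 were tested and 1 passed, VIM for vimentin, which was higher in MDA-MB-231Br (log2 fold change 1.56, adjusted p = 0.00473, but up to 0.101 with 1 library left out). Of all genes tested 14.4% passed the same test, so 1 of 7 markers is near the background. The log2 fold changes of the other tested markers lay between -1.33 for EPCAM and 0.96 for EGFR, and ESR1, the oestrogen receptor gene, had at most 26.5 normalized reads in any library. None of the 15 macrophage and microglia markers on the list used has a row, and they were not analysed here. Of 12 leukocyte markers CORO1A and VAV1 have rows, summing to 2.45 and 2.48 CPM in MDA-MB-231Br and 1.62 and 1.89 CPM in MDA-MB-231, and neither passed. They went in opposite directions, with log2 fold changes of 1.03 for CORO1A and -0.99 for VAV1. Of 4 fibroblast markers COL1A1, a collagen gene, has a row, with 12.6 and 17.2 CPM in MDA-MB-231Br and 3.57 and 2.98 CPM in MDA-MB-231, and rose (log2 fold change 2.20, adjusted p = 0.00419, but up to 0.0572 with 1 library left out). The part of other cell types in the results was not tested, and whether genes were filtered from the table before deposit is not given in the sources used here. In bulk samples, fewer expressing cells and less RNA per cell cannot be told apart.

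CSF1R and CSF3 fell and CCL2 and LAPTM5 rose in MDA-MB-231Br, while CSF1, CSF2 and CCL20 did not pass the test. The question, from the series design, is how brain metastatic cells differ from breast cancer cells in expression. With limma-trend on log2(value + 1) and adjustment over all genes, 4 of the 7 members passed at an adjusted p below 0.05, 2 in each direction, against a background of 14.4% of all genes tested, with 8.61% higher and 5.80% lower. The median log2 fold change of the members was 0.63, and that of all genes tested 0.01. Members and related lists were chosen with earlier results of these data known, so such contrasts with all genes do not test them. Libraries of the lines did not overlap for 5 of the 7 members, 3 higher and 2 lower in MDA-MB-231Br, but this held for 61.3% of all genes tested, 31.7% higher and 29.7% lower. The number of members passing was 6 without MDA-MB-231Br library A, 6 without MDA-MB-231Br library B, 2 without MDA-MB-231 library A and 1 without MDA-MB-231 library B. Over all genes the same fits called 36.4%, 21.8%, 2.92% and 2.97%.

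**Figure D1:**
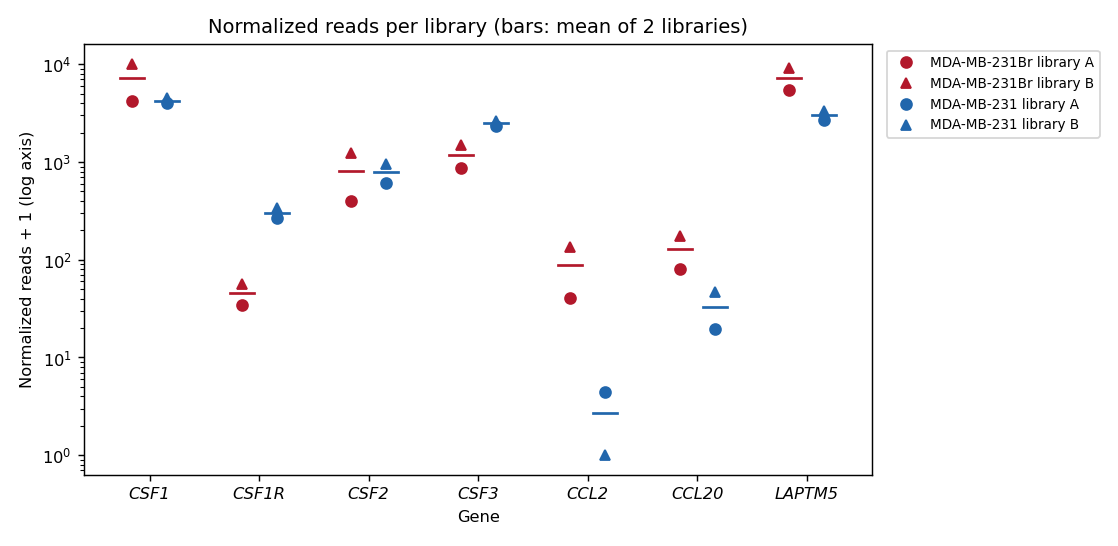
Normalized reads plus 1 on a log axis for the 7 measured genes, with red symbols for the 2 MDA-MB-231Br libraries, blue symbols for the 2 MDA-MB-231 libraries and bars for their means. The MDA-MB-231Br symbols lie below the MDA-MB-231 symbols for CSF1R and CSF3, above them for CCL2, CCL20 and LAPTM5, and on both sides of one for CSF1 and CSF2.

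Among the ligands, CSF1, which feeds macrophages and microglia, had 4222 and 10186 normalized reads (reads divided by the size factor of the library) in MDA-MB-231Br libraries A and B, against 4026 and 4481 in MDA-MB-231 libraries A and B. Library B of MDA-MB-231Br alone stood above the rest, and library A lay between the MDA-MB-231 values. The means were 7204 ± 4217 in MDA-MB-231Br and 4254 ± 322 in MDA-MB-231 (SD, n = 2 each). The log2 fold change was 0.63 ± 0.38 SE with a 95% interval of -0.25 to 1.5 (adjusted p = 0.294), so it did not pass. Without MDA-MB-231Br library A it was 1.26 (adjusted p = 7.92e-05), and without library B -0.01 (adjusted p = 0.989).

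CSF2, which encodes GM-CSF, had 401 and 1232 normalized reads in MDA-MB-231Br libraries A and B, against 605 and 959 in MDA-MB-231 libraries A and B. The MDA-MB-231Br libraries held both the lowest and the highest value, so the lines overlapped fully. Its log2 fold change was -0.11 ± 0.49 SE with an interval of -1.25 to 1.02 (adjusted p = 0.895), a range that leaves a change of up to about 1 log2 unit in either direction undetected. The sign turned with the library left out. It was -0.92 without MDA-MB-231Br library B (adjusted p = 0.02) and 0.69 without library A (adjusted p = 0.0621).

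CSF3, which encodes the neutrophil factor G-CSF, had 874 and 1489 normalized reads in MDA-MB-231Br libraries A and B, against 2359 and 2613 in MDA-MB-231 libraries A and B. Both MDA-MB-231Br values lay below both MDA-MB-231 values. The means were 1181 ± 435 in MDA-MB-231Br and 2486 ± 180 in MDA-MB-231 (SD, n = 2 each). The level was lower in MDA-MB-231Br by a fitted 2.18-fold, which is the log2 fold change turned into a ratio and not the ratio of the means (log2 fold change -1.12 ± 0.29 SE, adjusted p = 0.0394). The direction held in each of the 4 fits that left out 1 library. The log2 fold change was -0.74 without MDA-MB-231Br library A and -1.51 without MDA-MB-231Br library B. The call was lost without MDA-MB-231 library A (adjusted p = 0.153) and without MDA-MB-231 library B (adjusted p = 0.27).

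CSF1R, the receptor of CSF1, had 33.6 and 55.1 normalized reads in MDA-MB-231Br libraries A and B, against 264 and 338 in MDA-MB-231 libraries A and B. Every MDA-MB-231Br value was below every MDA-MB-231 value. These rested on 35 and 52 reads in MDA-MB-231Br and 309 and 348 reads in MDA-MB-231. The means were 44.4 ± 15.2 in MDA-MB-231Br and 300.6 ± 52.3 in MDA-MB-231 (SD, n = 2 each). The level was lower in MDA-MB-231Br by a fitted 6.79-fold (log2 fold change -2.76 ± 0.37 SE, adjusted p = 0.00338). The change was -3.11 without MDA-MB-231Br library B, and the call ended without MDA-MB-231 library B (adjusted p = 0.064, log2 fold change -2.59). In the annotation used (GENCODE v29), no gene shares exons with CSF1R, and the pseudogene RPL7P1 lies in an intron on the other strand with 6.36 to 17.9 normalized reads in the 4 libraries.

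PDGFRB, a platelet-derived growth factor receptor and the next protein-coding gene upstream of CSF1R on chromosome 5, was lower as well. It had 15.4 and 31.8 normalized reads in MDA-MB-231Br libraries A and B, against 753 and 531 in MDA-MB-231 libraries A and B (log2 fold change -4.77, adjusted p = 0.000653). HMGXB3, the neighbour on the other side, had 1421 and 2046 in MDA-MB-231Br and 1931 and 1554 in MDA-MB-231, with overlapping lines (log2 fold change -0.02, adjusted p = 0.965). Neither TIGD6 (adjusted p = 0.899) nor the sulfate transporter gene SLC26A2 (adjusted p = 0.201) beyond it passed. Neighbours were looked up after the values of the members had been seen, and the order is that of RefSeq.

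**Figure D2:**
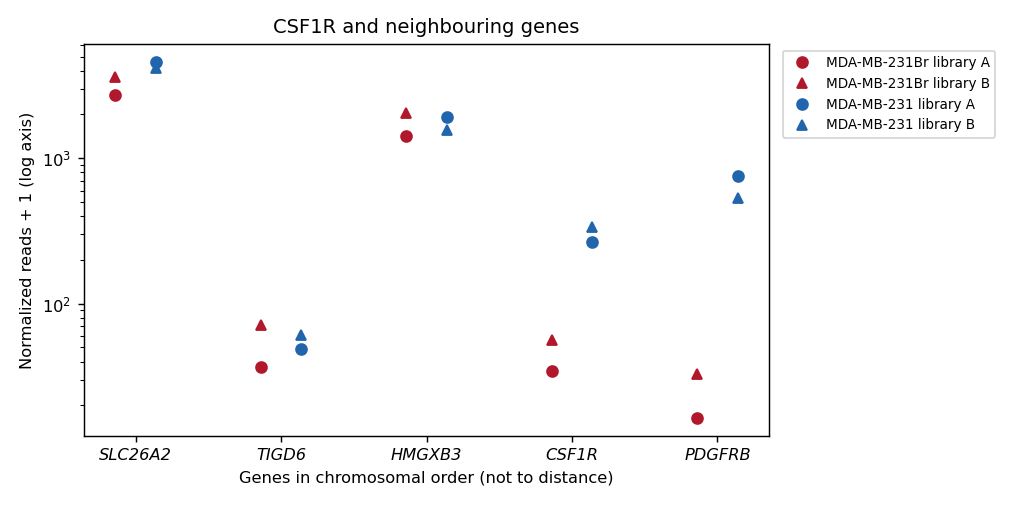
Normalized reads plus 1 on a log axis for CSF1R and the neighbouring protein-coding genes that have a row, in chromosomal order and not to distance, with MDA-MB-231Br in red and MDA-MB-231 in blue. CSF1R and PDGFRB, which adjoin, are the genes whose MDA-MB-231Br symbols lie far below, at 33.6 and 55.1 and at 15.4 and 31.8 normalized reads.

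CCL2, the monocyte attractant, had 39.4 and 135.6 normalized reads in MDA-MB-231Br libraries A and B, against 3.41 and 0 in MDA-MB-231 libraries A and B. Both MDA-MB-231Br libraries were higher, on 41 and 128 reads, while MDA-MB-231 libraries had 4 and 0 reads. The ratio of summed reads per library total was 45.7 (95% exact binomial interval 17.5 to 169.6, counting error only). On the log2(value + 1) scale, which understates the change of such a low gene, the log2 fold change was 5.14 ± 0.88 SE (adjusted p = 0.00862). CCL2 was the only member to pass in all 4 fits that left out 1 library, with adjusted p up to 0.0453 and log2 fold changes of 4.07 to 6.21. Without MDA-MB-231Br library B the change was 4.26. Its level stayed low, at 1.46 and 4.95 CPM in MDA-MB-231Br.

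CCL20, which attracts cells bearing CCR6, had 78.7 and 175 normalized reads in MDA-MB-231Br libraries A and B, against 18.8 and 45.6 in MDA-MB-231 libraries A and B. The lines did not overlap, although libraries of a line differed by 1.14 log2 units in MDA-MB-231Br and 1.24 in MDA-MB-231. The means were 126.8 ± 68.0 in MDA-MB-231Br and 32.2 ± 19.0 in MDA-MB-231 (SD, n = 2 each). The log2 fold change of 1.96 ± 0.55 SE narrowly missed the threshold (adjusted p = 0.0506). On recovered reads, the quasi-likelihood test of edgeR, which called 15.4% of all genes tested, gave 1.95, and CCL20 passed (adjusted p = 0.0426). The log2 fold change was 2.53 without MDA-MB-231Br library A (adjusted p = 1.34e-07) and 1.39 without MDA-MB-231Br library B (adjusted p = 0.0136). It was 1.35 without MDA-MB-231 library A (adjusted p = 0.288) and 2.58 without MDA-MB-231 library B (adjusted p = 0.0934).

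LAPTM5 had 5468 and 9165 normalized reads in MDA-MB-231Br libraries A and B, against 2683 and 3364 in MDA-MB-231 libraries A and B. Both MDA-MB-231Br libraries were above both MDA-MB-231 libraries. The means were 7317 ± 2614 in MDA-MB-231Br and 3024 ± 481 in MDA-MB-231 (SD, n = 2 each). The level was higher in MDA-MB-231Br by a fitted 2.36-fold (log2 fold change 1.24 ± 0.29 SE, adjusted p = 0.0287). The change was 0.86 without MDA-MB-231Br library B (adjusted p = 0.0176), and the call was lost without MDA-MB-231 library A (adjusted p = 0.181) and without MDA-MB-231 library B (adjusted p = 0.112).

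**Figure D3:**
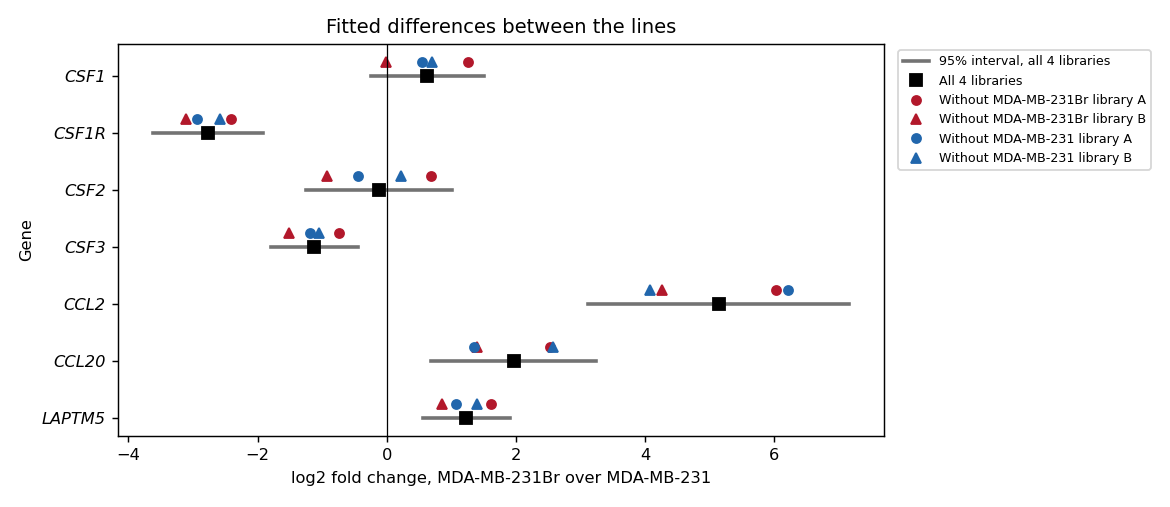
Log2 fold change of MDA-MB-231Br over MDA-MB-231 for each measured gene, with black squares for all 4 libraries, grey lines for 95% intervals and coloured symbols for fits that leave out 1 library. CSF1R and CSF3 stay below 0, CCL2, CCL20 and LAPTM5 stay above 0, and CSF1 and CSF2 have symbols on both sides.

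Levels were compared between genes only per length, as CPM per kilobase of merged exons (RPKM). In MDA-MB-231Br the order of mean RPKM was LAPTM5 (82.1), CSF1 (48.8), CSF2 (38.0), CSF3 (19.5), CCL20 (2.92), CCL2 (1.61) and CSF1R (0.316). Both libraries gave this order, although neighbours from LAPTM5 to CSF3, and CCL20 and CCL2, overlapped between libraries, all being higher in library B. CSF1R, at 0.242 and 0.391, lay below CCL2, at 0.734 and 2.49. In MDA-MB-231 the order was CSF3 (42.3), CSF2 (37.4), LAPTM5 (34.8), CSF1 (29.6), CSF1R (2.2), CCL20 (0.759) and CCL2 (0.0327). Among the first 3 the libraries differed in order, with CSF3 (40.5), LAPTM5 (31.2) and CSF2 (29.3) in library A and CSF2 (45.6), CSF3 (44.0) and LAPTM5 (38.4) in library B. CSF1, CSF1R, CCL20 and CCL2 followed in that order in both. LAPTM5, behind CSF3 and CSF2 in MDA-MB-231, had the highest mean of these genes in MDA-MB-231Br.

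Few receptors through which these factors act have a row in the table. Of 6 receptors and binding partners of CSF2, CSF3, IL34 and IL3, CSF2RA and SDC1 had rows, and neither passed. The more abundant, SDC1, a heparan sulfate proteoglycan that can bind IL34, had 3273 and 2985 normalized reads in MDA-MB-231Br against 3048 and 2794 in MDA-MB-231 (log2 fold change 0.10, adjusted p = 0.783). Of 12 receptors of CC chemokines, ACKR2 and CCRL2 had rows, and CCR2 and CCR6 were not analysed here. CCRL2, an atypical receptor, had 373 and 829 normalized reads in MDA-MB-231Br against 948 and 1013 in MDA-MB-231 and did not pass (log2 fold change -0.82, adjusted p = 0.172). Of 20 other chemokines of the CC, XC and CX3C classes 3 had rows and 2 were tested. Neither passed. The more abundant, CCL28, a mucosal chemokine, had a log2 fold change of 0.69 (adjusted p = 0.223), and CX3CL1, the ligand of the microglial receptor CX3CR1, had -2.29 (adjusted p = 0.204), with 0.96 and 31.8 normalized reads in MDA-MB-231Br against 33.3 and 43.6 in MDA-MB-231.

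Of 3 other blood-cell growth factors tested 1 was higher and 1 lower, where 8.61% of all genes tested were higher and 5.80% lower. IL7, a lymphocyte growth factor, had 125.8 and 165 normalized reads in MDA-MB-231Br against 18.8 and 25.2 in MDA-MB-231 (log2 fold change 2.67 ± 0.39 SE, adjusted p = 0.00477). KITLG, the ligand of KIT on blood stem cells and mast cells, had 92.2 and 171.7 in MDA-MB-231Br against 354 and 399.6 in MDA-MB-231 (log2 fold change -1.57 ± 0.36 SE, adjusted p = 0.0254). Both had lines that did not overlap, as did 61.3% of all genes tested. Over the 4 fits with 1 library left out, the largest adjusted p was 0.0638 for IL7 and 0.241 for KITLG.

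Genes acting below the growth factor receptors numbered 27 tested, of which 3 rose, 0 fell and 24 did not pass, where 8.61% of all genes tested rose. The median log2 fold change was 0.58. PIK3R1, a regulatory subunit of PI 3-kinase, had 982 and 1604 normalized reads in MDA-MB-231Br against 538 and 396 in MDA-MB-231 (log2 fold change 1.44, adjusted p = 0.0213). STAT5A, which carries CSF2 signals to the nucleus, had 360.1 and 514 in MDA-MB-231Br against 203 and 169 in MDA-MB-231 (log2 fold change 1.21, adjusted p = 0.0346). With edgeR's quasi-likelihood test 3 of these genes passed, where that test called 15.4% of all genes tested. Both counts of 3 among 27 genes are near the background. With limma-trend the number was 10 without MDA-MB-231Br library A and 8 without MDA-MB-231Br library B, in fits that called 36.4% and 21.8% of all genes. No gene of the list passed without MDA-MB-231 library A or without MDA-MB-231 library B, in fits that called far fewer of all genes. At an unadjusted p below 0.05 no gene of the list fell with limma-trend, where 4590 of all 14424 genes had such a p in either direction. At an adjusted p below 0.05 none fell with edgeR, DESeq2 or limma-voom. These tests called 935, 1287 and 930 of all genes lower, so the absence of such adjusted calls among 27 genes is near the background. The share of all genes lower at the unadjusted threshold is not given here.

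Transcription factors that act on cytokine promoters numbered 14 tested, of which 6 rose, 0 fell and 8 did not pass, where 8.61% of all genes tested rose. The median log2 fold change was 0.80, against 0.01 over all genes tested. This list, too, was chosen with earlier results of these data known, so the contrast with all genes does not test it. Those that rose were 2 of 5 NF-kappaB subunits, 3 of 6 AP-1 subunits and CEBPB (adjusted p = 0.0498), which like ETS1 and NFATC1 on the list belongs to neither family. JUNB, an AP-1 subunit, had 1607 and 1513 normalized reads in MDA-MB-231Br against 406 and 410.3 in MDA-MB-231 (log2 fold change 1.93 ± 0.23 SE, adjusted p = 0.0022) and passed in each fit with 1 library left out (adjusted p up to 0.0292). RELB, an NF-kappaB subunit, had 896 and 929 in MDA-MB-231Br against 371 and 333 in MDA-MB-231 (log2 fold change 1.37, adjusted p = 0.0101). The list had 7 passing members without MDA-MB-231Br library A, 5 without MDA-MB-231Br library B, 1 without MDA-MB-231 library A and 1 without MDA-MB-231 library B, in fits that called 36.4%, 21.8%, 2.92% and 2.97% of all genes. As in the list before, 0 genes fell at an unadjusted p below 0.05 with limma-trend or at an adjusted p below 0.05 with the other tests. At an adjusted p below 0.05 the main test called 5.80% of all genes lower. The absence of adjusted calls among 14 genes is near that background. The unadjusted threshold has a larger background, with 4590 of all 14424 genes in either direction, and its lower share is not given here. The directions between the MDA-MB-231Br libraries are given by family as a description only. All 5 NF-kappaB subunits were higher in library B than in library A, with median log2 differences from the MDA-MB-231 mean of 1.10 in library B and 0.49 in library A. Of the 6 AP-1 subunits 4 were lower in library B, with medians of 0.78 in library B and 1.14 in library A. About as many of all genes tested were higher in library B as in library A, and 4 of 6 is near that background. Whether the families differ was not tested. The part of RNA quality in library B was not tested either.

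Factors that destabilise or stabilise cytokine mRNAs numbered 7, of which 2 rose and 5 did not pass, where 14.4% of all genes tested passed, 8.61% higher and 5.80% lower. ZFP36L1 (log2 fold change 1.09, adjusted p = 0.0294) and ZFP36 (1.07, adjusted p = 0.0413), which promote decay of AU-rich cytokine mRNAs, were the members that rose. Neither stayed below the threshold in all fits with 1 library left out, with adjusted p up to 0.202 and 0.283. Of 4 sheddases and partners, through which membrane-bound CSF1 and other ligands can be released, ADAM10 fell, with 7853 and 9460 normalized reads in MDA-MB-231Br against 14416 and 15859 in MDA-MB-231 (log2 fold change -0.81, adjusted p = 0.0469). ADAM17, the protease that sheds CSF1, had 2232 and 3485 in MDA-MB-231Br against 2237 and 2402 in MDA-MB-231 and did not pass (adjusted p = 0.526). Of the 7 relatives of LAPTM5 and NEDD4-type ubiquitin ligases, NEDD4L was the 1 that rose, a share near the background, with 17021 and 12479 in MDA-MB-231Br against 6547 and 5478 in MDA-MB-231 (log2 fold change 1.28, adjusted p = 0.0137). The paralogs LAPTM4A (0.12, adjusted p = 0.724) and LAPTM4B (-0.47, adjusted p = 0.19) did not pass. Both ADAM10 and NEDD4L lost the call in at least 1 fit with 1 library left out, with adjusted p up to 0.362 and 0.159.

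**Figure D4:**
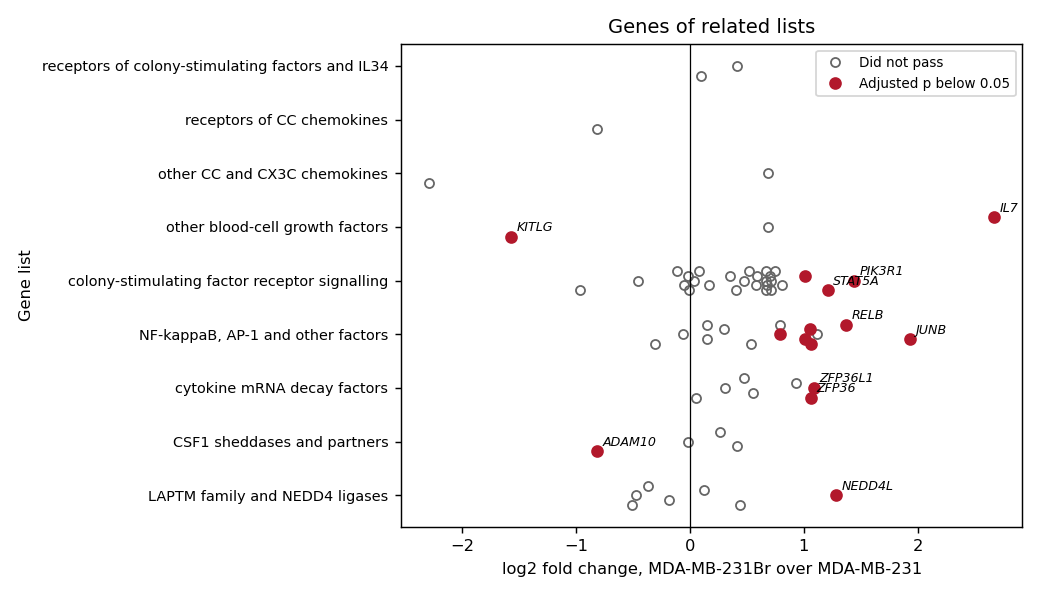
Log2 fold change of MDA-MB-231Br over MDA-MB-231 for each tested gene of the 9 related lists. Filled symbols mark genes at an adjusted p below 0.05, with names for those described in the text except CEBPB. IL7 and JUNB lie farthest to the right among filled symbols, at 2.67 and 1.93, and KITLG farthest to the left, at -1.57.

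The genes closest to each member in profile were found by the Euclidean distance of log2(value + 1), centred on each gene's mean, over the 4 libraries. They are a description of 4 points. CSF2 lay nearest to the interferon-stimulated gene ISG15 (distance 0.127), which had 247 and 813 normalized reads in MDA-MB-231Br and 357.5 and 568 in MDA-MB-231. CSF1 lay nearest to ERAP2 (0.0605), a peptidase of antigen processing, and NBPF11 (0.0615). DMKN (0.138) and HKDC1 (0.15) were nearest to CSF1R, BAIAP3 (0.0841) and ZNF626 (0.0899) to CSF3, and PTGFRN (0.105) and TPBG (0.142) to LAPTM5. GAS5-AS1 (0.177) and ABCA13 (0.234) were nearest to CCL20, FAXDC2 (0.177) was second for CSF2, and CCL2 had no close match (NLGN3 at 1.10, RIPK3 at 1.14).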

How the data were processed

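RNA-seq values were analysed for 2 libraries of MDA-MB-231Br and 2 of MDA-MB-231. HISAT2, featureCounts, DESeq2 and the build GRCh37 are listed, without versions, in the submitters' processing notes. Annotation and strand setting were not given in the sources used here. The deposited table holds a read signal per gene that the authors had divided by size factors. Each column consists of multiples of 1 step, which gave whole reads for 100% of values within 0.01 reads, and edgeR's quasi-likelihood test on them called 2228 genes, against 2079 by the main test. Column names give only the line.

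Of 15346 rows, 67 without a gene name (0.031% to 0.0369% of reads) were left out of totals and tests, and filterByExpr (minimum count 10, minimum total 15) kept 14424 genes. The main test was limma-trend on log2(value + 1), two-sided, with Benjamini-Hochberg adjustment over those genes and a threshold of 0.05. Log2 fold changes are MDA-MB-231Br minus MDA-MB-231. Libraries of a line were not copies (chi-square per degree of freedom 124 for MDA-MB-231Br and 61.4 for MDA-MB-231). Exon lengths came from GENCODE v29 (GRCh38), by symbol. Members and lists were chosen with earlier results of these data known. In each related list the 2 passing genes that rose most and the 2 that fell most are named if they reached 5 CPM in a line, or else the most abundant gene. LAPTM4A, LAPTM4B, ADAM17, CX3CL1, CEBPB, the marker genes and the neighbours of CSF1R were named outside that rule, after their values were seen. The main test alone was run on simulated counts, drawn with equal dispersion in both lines, unlike these libraries. No result here rests on that run. Python 3.11.15 and R 4.3.3 were used, R with DESeq2 1.42.0, edgeR 4.0.16 and limma 3.58.1. Alternatives comprised other tests, scalings, pseudocounts, filters and leaving out each library.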

Additional observations from a re-analysis of the deposited data

How the results depend on the processing

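The number of members passing ranged from 1 to 6 and that of all genes from 421 to 5257 when 1 library was left out, against 4 and 2079 with all. A line's lone library is then assumed to vary like the other line. Both counts stayed within 1.5 times under the other 9 alternatives, with edgeR, DESeq2 and limma-voom on recovered reads, other scalings, pseudocounts of 0.5 and 5, no filter and a stricter filter (50 reads in at least 2 libraries). CSF2 turned sign with edgeR (0.029) and DESeq2 (0.035), and the cause was not tested. With 1 library left out it ranged from -0.92 to 0.69, and CSF1 from -0.0086 to 1.26. CSF1R, CSF3 and LAPTM5 kept direction and call in those 9 alternatives, and CCL2 in the 8 that tested it, as the stricter filter removed it. CCL20 passed in 7 of the 9, with adjusted p from 0.00964 to 0.0646. CCL2 and CCL20 rest on few reads, 4 and 69 in MDA-MB-231, which limits their precision. No paired analysis was possible because the column names carry no replicate numbers.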

Other observations

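Among protein-coding genes within 3 places of a member on its chromosome, 24 were tested, of which 1 was higher and 4 were lower in MDA-MB-231Br, 20.8% in all against 14.4% of all genes tested. Beside PDGFRB, those lower were GSTM3, a glutathione transferase gene near CSF1, with 840.3 and 593 normalized reads in MDA-MB-231Br against 1409 and 2156 in MDA-MB-231 (log2 fold change -1.30, adjusted p = 0.026), AHCYL1, also near CSF1 (-0.89, adjusted p = 0.0489), and PDLIM4 near CSF2 (-1.03, adjusted p = 0.0482). The circadian repressor gene NR1D1, near CSF3, was higher, with 406 and 509.7 in MDA-MB-231Br against 178 and 162 in MDA-MB-231 (1.42, adjusted p = 0.0156). PSMD3 and MED24, which flank CSF3, did not pass (adjusted p = 0.639 and 0.249). These genes were chosen after the values of the members had been seen.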
